A study of Mus musculus with 4 samples.

Results

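The cytosolic ribosomal protein genes encode the proteins of the ribosome that translates nuclear-encoded mRNA in the cytoplasm. The members were chosen by symbol alone: Rpl or Rps with a number and an optional letter, Rplp0, Rplp1, Rplp2 and Rpsa. The pattern took 82 of the 12800 genes in the count table, which is 0.641% of the genes. Of these, 50 belong to the large and 32 to the small ribosomal subunit. In the cells pooled below, the members held 13.8% of all unique molecular identifiers (UMIs), the tags by which a droplet assay counts each captured transcript once.

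The study asked how loss of Trem2, a lipid-sensing receptor of microglia, alters these brain macrophages during chronic loss of myelin. Male mice aged 12 to 14 months were kept for 12 weeks on control diet or on diet with 0.2% cuprizone, a copper chelator that kills oligodendrocytes. The 4 libraries were Trem2 +/+ on control diet (wild type, control), Trem2 +/+ on cuprizone, Trem2 +/- on cuprizone (heterozygote) and Trem2 -/- on cuprizone (knockout). Each library pooled live CD11b+ CD45low cells sorted from 2 hemibrains, 30000 from each, so every group is 1 library and no difference has a replicate check. No knockout or heterozygote library on control diet was analysed here. The knockout allele is not given in the sources used here.

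The pool for the comparisons held 479, 663, 695 and 753 cells, in that order of libraries, from 6 of the authors' 8 clusters. Median depth was 4717, 6588, 6849 and 6061 UMIs per cell. Trem2 itself stood at 3132, 2939, 1763 and 520.1 counts per 1000000 UMIs (CPM). Whether the counted 3′ end lies outside the deleted part is not given, so this order is reported and not used as a check of the labels. All 13 microglia markers listed had at least 50 UMIs in each library. The neutrophil markers summed to 0.55, 48.6, 1780 and 650.4 CPM over the libraries, so they moved with the groups; their part in the results was not tested. The 2 measured of 6 B cell markers summed to 210.5 CPM on control diet and 26.6, 22.6 and 31.5 on cuprizone. Of the 656 Jchain UMIs on control diet, 642 came from 1 cell of cluster 02, and Cd79b had 30.2, 26.6, 22.4 and 31.0 CPM. Without that cell the sum of the members in wild type on cuprizone was 1.259 times that on control diet (1.254 to 1.263), against 1.258 with it. Between libraries, 8 cell barcodes were shared. In the text, intervals of ratios are exact 95% intervals that cover counting error only. Intervals of medians cover the spread over the cells of a library and not that over animals. A gene is called where its CPM is at least 25% higher or 20% lower and the interval of its ratio excludes 1. Both libraries together must hold at least 50 UMIs.

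A ribosome needs its proteins in fixed proportion, and their genes are usually expressed together. Most of their mRNAs begin with a cytidine and a run of pyrimidines, the terminal oligopyrimidine (TOP) motif, through which mTOR signalling and the RNA-binding protein LARP1 control their stability and translation. Ribosomal protein mRNAs are among the most abundant of a cell, and in microglia their share of the transcriptome is often seen to vary with the state of activation.

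RefSeq start sites (build GRCm38.p6) were matched for 61 of the 82 members. The windows shown hold 15 bases before and 15 from each start, and the longest run of C and T touching the 20 bases on either side of the start is in capitals where it has at least 8 bases. They are shown for members described below, with and without such a run.
Rps24: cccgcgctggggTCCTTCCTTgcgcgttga
Rpl22l1: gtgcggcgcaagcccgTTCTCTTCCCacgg
Rpl7a: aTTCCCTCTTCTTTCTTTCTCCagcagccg
Rpl28: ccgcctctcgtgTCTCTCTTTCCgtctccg
Rpl35: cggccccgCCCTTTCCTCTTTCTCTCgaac
Rps27: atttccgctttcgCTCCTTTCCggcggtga
Rplp2: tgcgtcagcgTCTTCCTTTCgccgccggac
Rpl41: cacacgggccggctcggaagtgacgacacc
Rpl7l1: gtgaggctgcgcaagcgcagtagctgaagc

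The windows lie at chr14:24490663-24490692 on the plus strand for Rps24, chr3:28805493-28805522 plus for Rpl22l1, chr2:26910792-26910821 plus for Rpl7a and chr7:4792950-4792979 plus for Rpl28. Those of Rpl35 (chr2:39005117-39005146), Rps27 (chr3:90213634-90213663), Rpl41 (chr10:128549154-128549183) and Rpl7l1 (chr17:46782642-46782671) are on the minus strand, and that of Rplp2 (chr7:141447636-141447665) is on the plus strand. The run measured 21 bases at Rpl7a, 18 at Rpl35, 11 at Rpl28, 10 at Rplp2 and Rpl22l1, and 9 at Rps24 and Rps27. Rps24 has another RefSeq start 75 bases downstream of the one shown, and the run there measured 19 bases. Rpl41 and Rpl7l1 had none of 8 bases.

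A pyrimidine run of at least 8 bases at the start was present in 33 of the 61 matched members (54.1%) and in 24% of 9445 other protein-coding genes of the table. A gene with several listed starts was counted once, if any of them matched; the members had 72 starts and the other genes 12131. The stricter pattern of C at the start followed by 4 pyrimidines was met by 13 members (21.3%) and by 2.78% of the other genes. On either strand of the 300 bases around the start, CCGGAAG, a form of the ETS factor site, occurred in 26 members (42.6%) against 20.5% of the others. TATAAA, the TATA box, occurred in 7 members (11.5%) against 8.69%, and AAGATGGC, a form of the YY1 site, in 6 (9.84%) against 5.42%. These are matches of letters and not sites of binding, and annotated starts can lie several bases from the one used in these cells. CCGGAAG and AAGATGGC share the letters AAG, so their matches may overlap.

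**Figure D1:**
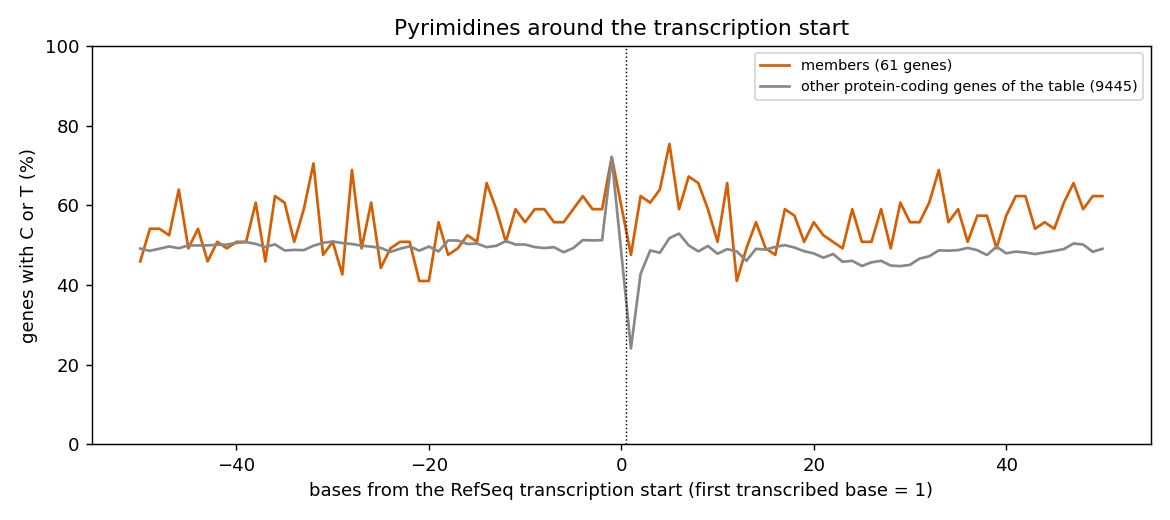
Share of genes with C or T (y axis, percent) at each base from 50 before to 50 after the first listed transcription start of each gene (x axis), for 61 matched members (orange) and 9445 other protein-coding genes (grey). Over the first bases of the transcript the members lie above the others: at the first base 47.5% of members against 24.1% of the other genes have a pyrimidine.

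In wild-type microglia, the share of UMIs from ribosomal protein genes was higher in the cuprizone library than in the control-diet library, and nearly all members moved together. Summed over the pool, the members held 11.1% of UMIs on control diet, 13.9% in wild type on cuprizone, 14.2% in the heterozygote and 14.6% in the knockout. The control-diet library was thus the lowest of the 4 and the knockout the highest. The sum in wild type on cuprizone over that on control diet was 1.258 (1.254 to 1.263). In 80 of 82 members the control-diet library had the lowest CPM of the 4 libraries. Rpl6l and Rpl7l1 were the exceptions. How many of all genes were lowest on control diet was not counted. Between the wild-type libraries alone, 2938 of all 8819 genes with at least 50 UMIs were higher on cuprizone. These are shares of a total, and whether the number of molecules per cell differed was not tested. Immediate early and dissociation response genes held 3.12%, 2.81%, 2.76% and 2.92% of UMIs in the 4 libraries, also with no test of their part.

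The same order held when every cell was thinned at random to 2915 UMIs, the 10th percentile of the pool, which kept 2331 of 2590 cells. The median cell then held 10.3% ribosomal protein UMIs on control diet (interval over cells 9.95 to 10.7), 13.1% in wild type on cuprizone (12.6 to 13.3), 13.3% in the heterozygote (12.8 to 13.7) and 14.0% in the knockout (13.6 to 14.3). Without thinning these medians were 10.1%, 12.7%, 12.9% and 13.8%. Cuprizone against control diet in wild type differed by 2.76 percentage points (1.82 to 3.36). The knockout was 0.909 points above wild type on cuprizone (0.309 to 1.75), and the heterozygote 0.206 points above it, with an interval that holds 0 (-0.515 to 1.17). Cells ranged widely within a library: the SD over cells was 2.41 points on control diet and 3.34 to 3.85 on cuprizone, against 0.566 to 0.642 from counting alone. Cells are not replicates, and these intervals describe the libraries only.

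Depth was not the same in the 4 libraries, and the share rose with depth within each. When the pooled cells were split by UMIs per cell into 3 ranges of equal number, the control-diet library had medians of 8.83%, 10.3% and 11.7% from the shallowest to the deepest range. Wild type on cuprizone had 10.7%, 12.4% and 14.3%, the heterozygote 10.3%, 12.3% and 15.0%, and the knockout 11.6%, 13.9% and 15.0%. Control diet was lowest in each range. Over cells within a library, the thinned share and log10 UMIs had Pearson's r of 0.34 to 0.42, and within a cluster -0.10 to 0.18; both measures come from the same cells.

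**Figure D2:**
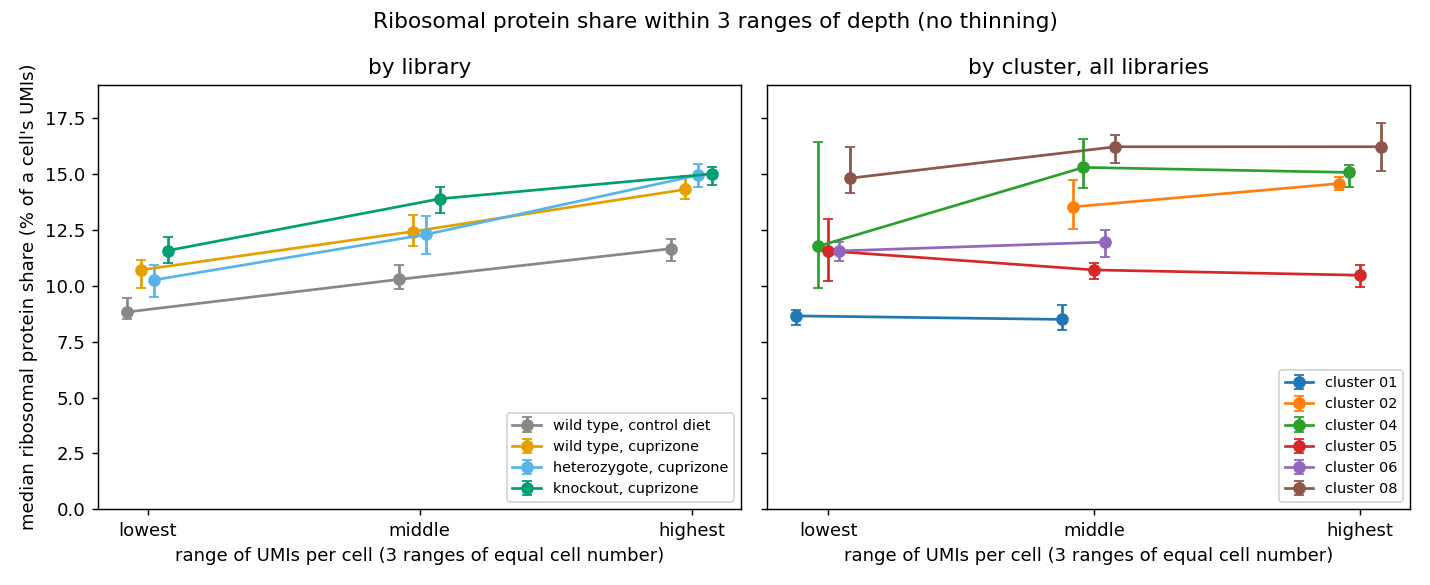
Median ribosomal protein share of a cell's UMIs (y axis, percent, no thinning) in 3 ranges of UMIs per cell that hold equal numbers of pooled cells (x axis), by library on the left and by cluster on the right; bars are exact 95% intervals of the median over cells. In each range the control-diet library is lowest, and cluster 08 lies above cluster 01 in both ranges where the latter is drawn (8.66% and 8.50%).

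Both subunits moved alike. The large subunit held 6.29%, 7.92%, 8.04% and 8.31% of UMIs in the order of libraries above, and the small subunit 4.78%, 6.02%, 6.15% and 6.32%. The ratio of the first to the second was 1.316, 1.315, 1.308 and 1.314. Within the members' own total, the share of a single member had a median range of 0.095 on the log2 scale over the 4 libraries.

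Rps29, Rps27, Rpl41 and Rpl13 were among the most counted members. Rps29, a small zinc-binding protein of the small subunit, had 5581 CPM on control diet, 6803 in wild type on cuprizone, 7055 in the heterozygote and 7321 in the knockout. Rpl41, a very short basic peptide of the large subunit, had 2980, 4181, 4467 and 4374 CPM. Both were lowest on control diet. At the other end stood Rpl39l, the paralog of Rpl39 known mainly from male germ cells, with 79 UMIs in the whole pool. All 82 members had at least 50 UMIs in the pool, and 81 had at least 1000. A 3′ assay counts molecules and not length, so these values order counts; reads shared with the many processed pseudogenes of this family may have been dropped or split, which makes the level of a single member uncertain.

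In the comparison of cuprizone with control diet in wild type, 81 members had enough UMIs, all but Rpl39l. Of these, 79 had a ratio above 1 with an interval above 1, and 42 were called higher. In the whole table, members included, 4.76% of 8819 genes were called higher. Of the 1332 genes with 1000 UMIs over both libraries, members again included, 9.46% were called higher. Over all 8819 genes, 2938 had a ratio above 1, 664 of them with an interval above 1. Among 2820 other genes with at least 1000 UMIs in the pool, these counts were 950 and 358, and 153 genes were called higher. Rpl6l was the one member called lower, against 12.1% of all genes. The median log2 ratio of the members was 0.33, or 1.256-fold, and that of all genes was -0.11. Past 1.5-fold there were Rpl22l1 above (2.59% of all genes) and Rpl6l below (4.44%). Past 2-fold there was no member, where 1.39% of all genes were higher and 0.59% lower. With TMM scaling, which adds 0.12 to each log2 ratio of this comparison and moved the median of all genes to 0.01, the members' median was 0.45, 76 members were called higher against 8.54% of all genes, and the share of higher among all genes called went from 28.2% to 61.8%. Over every deposited cell, clusters 03 and 07 included, 27 members were called higher, against 5.24% of all genes. The sums agreed within counting error between the 47 members used in the authors' clustering (1.259) and the 35 not used (1.257).

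Rpl22l1 had the largest ratio. It encodes a paralog of Rpl22, an RNA-binding protein at the surface of the large subunit, and Rpl22 is known to repress the Rpl22l1 mRNA. Rpl22l1 had 280.3 CPM on control diet, 428.0 in wild type on cuprizone, 447.3 in the heterozygote and 402.8 in the knockout, and Rpl22 had 415.6, 528.9, 527.9 and 525.5. The control-diet library was lowest for both. The ratio of cuprizone to control in wild type was 1.527 (1.420 to 1.643) for Rpl22l1 and 1.273 (1.197 to 1.354) for Rpl22.

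Next came Rps24 of the small subunit, a Diamond-Blackfan anaemia gene, at 1103, 1565, 1551 and 1572 CPM. Its ratio was 1.419 (1.367 to 1.472), and its 3 cuprizone libraries lay close together. Rpsa, which as the laminin receptor precursor is also found at the cell surface, had 400.2, 567.1, 604.9 and 557.7 CPM and a ratio of 1.417 (1.333 to 1.507). Rpl39, which lines the peptide exit tunnel, followed with 1.410 (1.358 to 1.464), and Rpl41 with 1.403 (1.372 to 1.435). The smallest ratios among the canonical proteins were those of Rpl8, at 1.138 (1.091 to 1.188), the stalk protein Rplp1, at 1.138 (1.108 to 1.170), and Rpl7a, at 1.139 (1.080 to 1.202).

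The acidic stalk recruits the elongation factors that drive the ribosome. Its base, Rplp0, had 1650, 2139, 2178 and 2219 CPM, and its ratio of 1.296 (1.257 to 1.336) was above that of Rplp1. Rplp2, with 1334, 1684, 1678 and 1712 CPM, had a ratio of 1.262 (1.220 to 1.306). Rpl5 and Rpl11, which with the smallest rRNA of the large subunit can bind Mdm2 and so stabilize p53, had ratios of 1.159 (1.089 to 1.234) and 1.220 (1.179 to 1.263). Neither was called.

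Members that departed from the group were not all ribosomal proteins in the strict sense. Rpl6l (chr10:111125851-111126721, plus strand) is listed as a processed pseudogene in GENCODE vM21. It had 186.3 CPM on control diet and 123.2, 120.4 and 135.7 CPM on cuprizone, so the control-diet library stood above the other 3. The ratio in wild type was 0.661 (0.595 to 0.735), and thinned levels were higher on control diet than in wild type on cuprizone in each of the 6 pooled clusters, among them cluster 08 (263.9 against 131.6 CPM, 13 control cells). Outside the pattern, genes with a pseudogene symbol (Rpl or Rps ending in -ps) were looked at after their values had been seen. Of these, 11 had enough UMIs, all with a ratio and interval below 1, and the sum was 0.717 (0.700 to 0.734). Pseudogenes under other symbols were not in this group, and not every gene in it is listed as a pseudogene by gene type. Over all 8819 genes, 5881 had a ratio below 1 and 1579 an interval below 1. On cuprizone, the pseudogene sum was 0.904 (0.884 to 0.925) times that in wild type in the knockout and 0.879 (0.859 to 0.900) in the heterozygote.

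Rpl7l1, a relative of Rpl7 that acts in ribosome assembly, had 89.6, 80.2, 80.1 and 74.5 CPM and a ratio of 0.895, with an interval that holds 1 (0.776 to 1.032). Rpl7 itself had 779.2, 929.2, 885.9 and 943.2 CPM and a ratio of 1.192 (1.140 to 1.248). Rps27l, the p53-induced relative of Rps27, had 200.4, 253.4, 245.2 and 244.4 CPM, with a ratio of 1.265 (1.158 to 1.383) that was close to that of Rps27, 1.245 (1.218 to 1.272). Of the listed paralogs, then, Rpl22l1 and Rps27l were higher on cuprizone and Rpl7l1 did not differ beyond counting error. Without the 4 measured paralogs and Rpl6l, all 77 remaining members had intervals above 1.

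Relative to the members' own sum, 20 members of 81 had a ratio and interval above that of the sum, 19 had both below it, and 42 had an interval that held it. Members with a pyrimidine run at the start had a median log2 ratio of 0.33 (32 members, without Rpl39l) and those without 0.36 (28 members). Of the members with a printed window, Rpl22l1 and Rps24, with a run, and Rpl41, without one, were among the 5 highest. Rpl7a, with the longest printed run, and Rpl7l1, without one, were among the 5 lowest. A link between run and ratio was not tested.

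**Figure D3:**
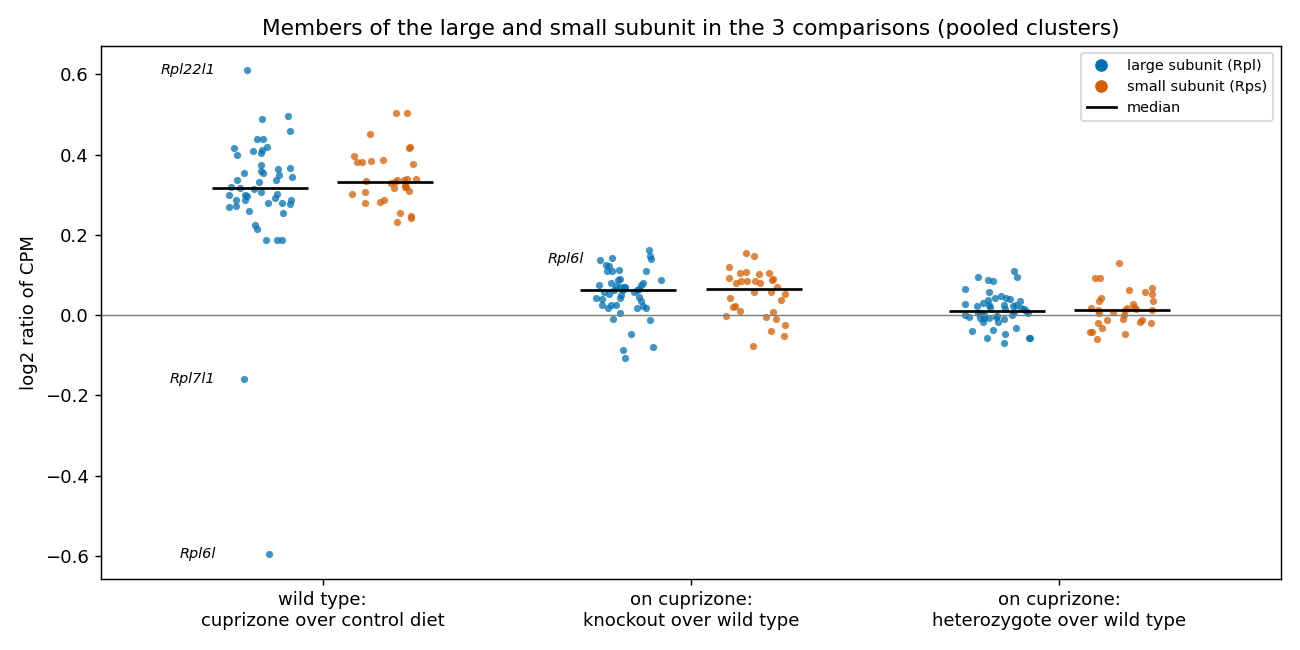
Log2 ratio of CPM (y axis) of each large-subunit (blue) and small-subunit (orange) member in the 3 comparisons (x axis); each point is 1 member, black bars are medians, and Rpl39l (79 UMIs) is left out. On cuprizone against control diet in wild type the points lie above 0 except Rpl7l1 (-0.16) and Rpl6l (-0.60), and Rpl22l1 (0.61) is highest; the genotype comparisons lie near 0.

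On cuprizone, the knockout library differed from wild type by a small amount in the same direction for most members. The sum was 1.050 times that in wild type (1.047 to 1.053) and the median log2 ratio 0.06, against 0.00 for all genes. Of 82 members 68 had a ratio above 1, 49 of them with an interval above 1, and 14 had one below 1, 3 of them with an interval below 1. Over all 9189 genes, 4571 had a ratio above 1 (874 with an interval above 1) and 4618 below (972 with an interval below 1). Among 2820 other genes with at least 1000 UMIs in the pool, 1448 were above 1, 457 of them with an interval above 1. No member was called higher, against 4.49% of 9189 genes, or lower, against 7% of them. The comparison shares its wild-type library with the other 2, so their ratios are not independent.

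The largest ratios in the knockout were those of Rpl3, which shapes the peptidyl transferase centre, at 1.120 (1.093 to 1.147), Rps9 at 1.113 (1.090 to 1.138), Rpl13a, known for its part in silencing inflammatory mRNAs, at 1.107 (1.084 to 1.130), Rps23, a protein of the decoding centre, at 1.107 (1.086 to 1.129), and Rpl36a at 1.104 (1.068 to 1.141). Rpl3 had 1967 CPM in wild type, 1957 in the heterozygote and 2202 in the knockout on cuprizone, so the heterozygote stood with the wild type. Rps9 had 2508, 2521 and 2792, and Rpl13a 2676, 2694 and 2962, in the same order. For these 3 members the knockout alone was above the other cuprizone libraries.

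Among members with at least 200 UMIs, the lowest ratios in the knockout were those of Rpl7l1, at 0.929 (0.818 to 1.055), Rpl22l1, at 0.941 (0.891 to 0.994), Rpl28, at 0.946 (0.909 to 0.985), Rps2, at 0.948 (0.915 to 0.981), and Rps27l, at 0.964 (0.899 to 1.035). Rpl28 had 774.8 CPM in wild type, 782.6 in the heterozygote and 733.0 in the knockout. Rps2, which lies near the entry of the mRNA channel, had 1056, 1060 and 1001. For both, the knockout was the lowest of the cuprizone libraries and still above control diet (629.7 and 772.6 CPM). Rpl22l1, Rpl28, Rps2 and Rps27l were highest in cluster 04, and Rpl7l1 was lowest there. Of the 81 members with at least 1000 UMIs, 26 were highest in cluster 04. Cluster 04 held 18.4% of pooled cells in wild type on cuprizone and 1.73% in the knockout. Thinned levels of Rps27l on cuprizone were higher in the knockout than in wild type in each pooled cluster. In cluster 02 they were 252.9 against 213.8 CPM. Those of Rpl22l1 were higher in cluster 01 (331.2 against 235.2) and lower in cluster 02 (415.5 against 439.4). The part of the cluster mix was not tested.

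The heterozygote differed less from wild type on cuprizone. The sum ratio was 1.018 (1.015 to 1.021) and the median log2 ratio 0.01. Of the 82 members 52 had a ratio above 1 (18 with an interval above 1) and 30 below (6 with an interval below 1). Over all 9248 genes, 4456 had a ratio above 1 (452 with an interval above 1) and 4792 below (568 with an interval below 1). No member was called higher, against 2.81% of 9248 genes, and 1 was called lower, against 2.84%. That member was Rpl39l, with 33 UMIs in wild type and 17 in the heterozygote. It was not called over every deposited cell, without cluster 08, without cluster 02, without the deepest 5% of cells or with thinned cells. The highest ratios were those of Rps28 at 1.093 (1.073 to 1.114), Rpl36a at 1.080 (1.045 to 1.116), Rpl41 at 1.069 (1.051 to 1.087), Rpl35, a protein at the tunnel exit, at 1.068 (1.046 to 1.090), and Rpsa at 1.067 (1.019 to 1.117). Among the lowest with at least 200 UMIs were those of Rpl7 at 0.953 (0.919 to 0.989), Rpl30 at 0.961 (0.923 to 1.001), Rpl18 at 0.961 (0.927 to 0.996) and Rpl15 at 0.962 (0.930 to 0.995).

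The authors' clusters, which were made from these cells with 47 of the members among the genes used, differed more in ribosomal protein share than the libraries did. The thinned median was 8.75% in cluster 01, 10.7% in cluster 05, 11.6% in cluster 06, 14.6% in cluster 02, 15.1% in cluster 04 and 15.8% in cluster 08. The 2 clusters outside the pool had 8.35% (03) and 12.9% (07). Cluster 03 holds cells with neutrophil and choroid plexus markers, and cluster 07 cells with markers of border-associated macrophages. In the order 01, 05, 06, 02, 04, 08, median depth was 3387, 7185, 3541, 16984.5, 10695 and 5817 UMIs, so cluster 08 had the highest share at a depth below that of clusters 02, 04 and 05.

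The members not used for clustering gave a like order, with medians of 4.43%, 5.32%, 5.90%, 7.41%, 7.65% and 7.99% of UMIs. They vary together with the members that were used, so their order is not independent of the clustering. Immediate early and dissociation response genes, which rise while brain tissue is taken apart, held 4.99%, 3.43%, 0.79%, 3.05%, 1.82% and 2.09% in the same order of clusters. Over cells within a library their share and that of the members had r of -0.19 to -0.45, and both are parts of 1 total. Their part in the differences was not tested.

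**Figure D4:**
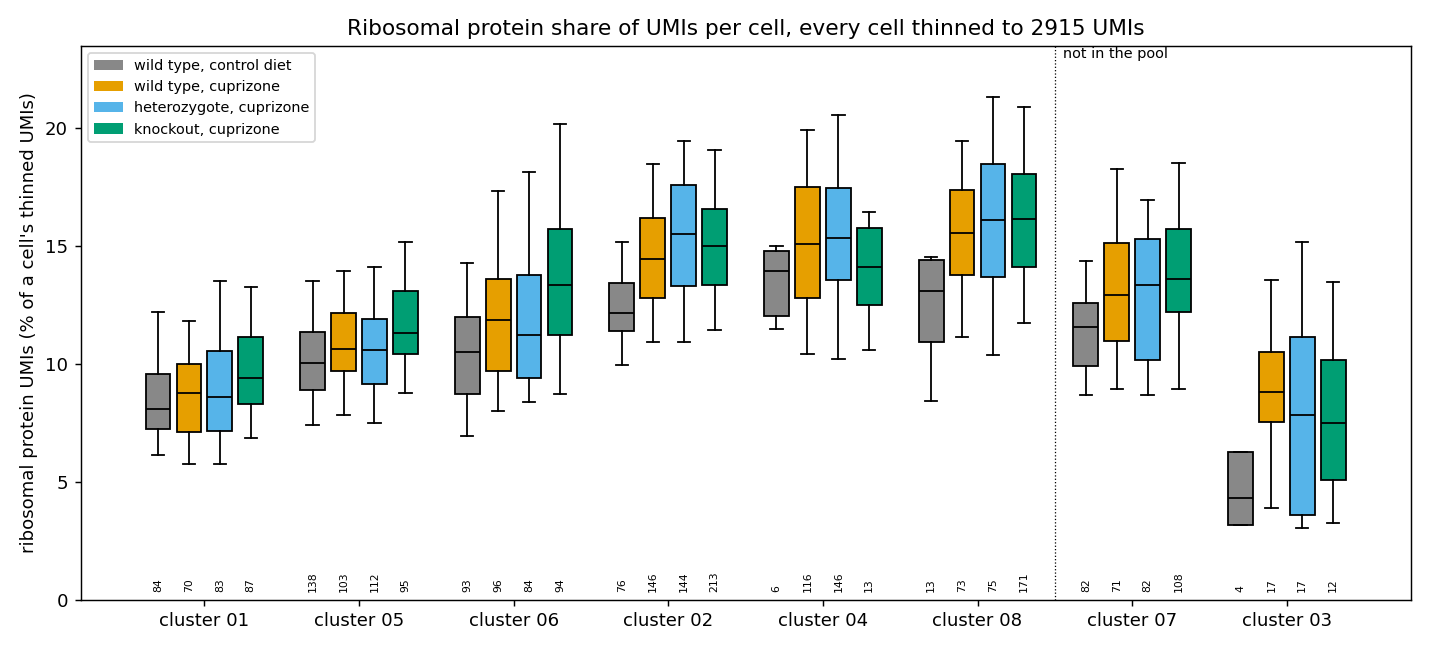
Ribosomal protein share of a cell's UMIs after thinning to 2915 UMIs (y axis, percent) by cluster (x axis) and library (colour); boxes give quartiles and median over cells, whiskers the 5th and 95th percentiles, and the small numbers the cells. Medians run from 8.75% in cluster 01 to 15.8% in cluster 08 over all libraries. In each cluster the control-diet box has a lower median than wild type on cuprizone. The interval of that difference holds or reaches 0 in clusters 01, 04, 05 and 06, and cluster 03 has 4 control-diet cells.

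The lowest 10% of the pooled cells by thinned share (234 cells, 3.33% to 8.34%) was 58.1% cluster 01 and 41.9% control diet, where these make up 13.9% and 17.6% of the cells. The highest 10% (238 cells, 17.9% to 22.8%) held 90 cells of cluster 08 and 0 of the 410 control-diet cells. Of it 90 cells were from the heterozygote and 88 from the knockout.

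Since the libraries mixed the clusters in different proportions, the comparisons were repeated within clusters. Cluster 08 held 2.71% of pooled cells on control diet, 11.5% in wild type on cuprizone, 11.1% in the heterozygote and 23.2% in the knockout, and cluster 04 held 1.3%, 18.4%, 21.6% and 1.73%. Within cluster 01, the sum of the members in wild type on cuprizone was 1.013 times that on control diet, with an interval that holds 1 (0.997 to 1.029). It was 1.073 (1.063 to 1.083) in cluster 05, 1.161 (1.147 to 1.174) in cluster 06, 1.184 (1.177 to 1.190) in cluster 02, 1.168 (1.143 to 1.193) in cluster 04 with 6 control cells, and 1.213 (1.189 to 1.237) in cluster 08 with 13. All were below the 1.258 of the pool. In the median share of thinned cells, the difference had an interval above 0 in clusters 02 (1.06 to 3.26) and 08 (0.480 to 6.86). In clusters 01, 04, 05 and 06 its interval held or reached 0. With the 6 clusters weighted equally, the difference in median share was 1.43 points in place of 2.76. In cluster 02, the deepest cluster and the one with the narrowest interval, 76 of 81 members had an interval above 1 and 10 were called higher, against 2.54% of 6801 genes in that cluster.

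Between knockout and wild type on cuprizone, the ratio of the sums was 1.149 (1.132 to 1.166) in cluster 01, 1.136 (1.124 to 1.149) in cluster 06, 1.068 (1.057 to 1.078) in cluster 05, 1.047 (1.038 to 1.056) in cluster 08 and 1.031 (1.027 to 1.035) in cluster 02. It was below 1 in cluster 04, at 0.936 (0.923 to 0.9496), where the knockout had 13 cells. For the heterozygote it ran from 0.968 (0.956 to 0.979) in cluster 06 to 1.046 (1.042 to 1.051) in cluster 02, on both sides of 1. In the median share of thinned cells, the knockout's difference from wild type had an interval that holds 0 in each of these clusters. That difference was 0.635 points in cluster 01 (-0.515 to 1.85) and 1.46 in cluster 06 (-0.172 to 2.85). The heterozygote's intervals also held 0 in each. The ratios of the sums cover counting error only. Whether the ratios of the sums differ between clusters beyond the spread of libraries could not be tested with 1 library a group.

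Single members followed the order of the clusters closely. Of the 81 with at least 1000 UMIs, 79 had their lowest CPM of the 6 clusters in cluster 01. In cluster 08, 49 had their highest, in cluster 04 it was 26 and in cluster 02 it was 5. These counts were not made over other genes. The median member was 1.73-fold higher in cluster 08 than in cluster 01, where the median of 2820 other genes of that abundance was 0.865. Between the highest and lowest cluster the members differed by a median of 0.83 on the log2 scale (0.54 to 1.14).

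The widest ranges were those of Rps28, Rpl41 and Rps2. Rpl41 had 2280 CPM in cluster 01, 2776 in 05, 3263 in 06, 4430 in 02, 5023 in 04 and 4659 in 08. Rps28, a short protein of the small subunit near the mRNA exit, had 1741, 2197, 2375, 3831, 3764 and 3565 CPM in that order, and was highest in cluster 02. Rps2 had 666.0, 787.2, 860.0, 986.5, 1380 and 1208 CPM, and was highest in cluster 04. Rpl7l1 ran the other way, with 94.2, 111.0, 103.8, 71.7, 69.6 and 71.3 CPM. Rpl22l1 had 258.3, 280.3, 258.9, 424.8, 500.5 and 417.4 CPM, while Rpl22 had 316.6, 379.8, 441.2, 549.8, 584.8 and 580.7; cluster 06 thus matched cluster 01 for the paralog and stood above it for Rpl22.

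**Figure D5:**
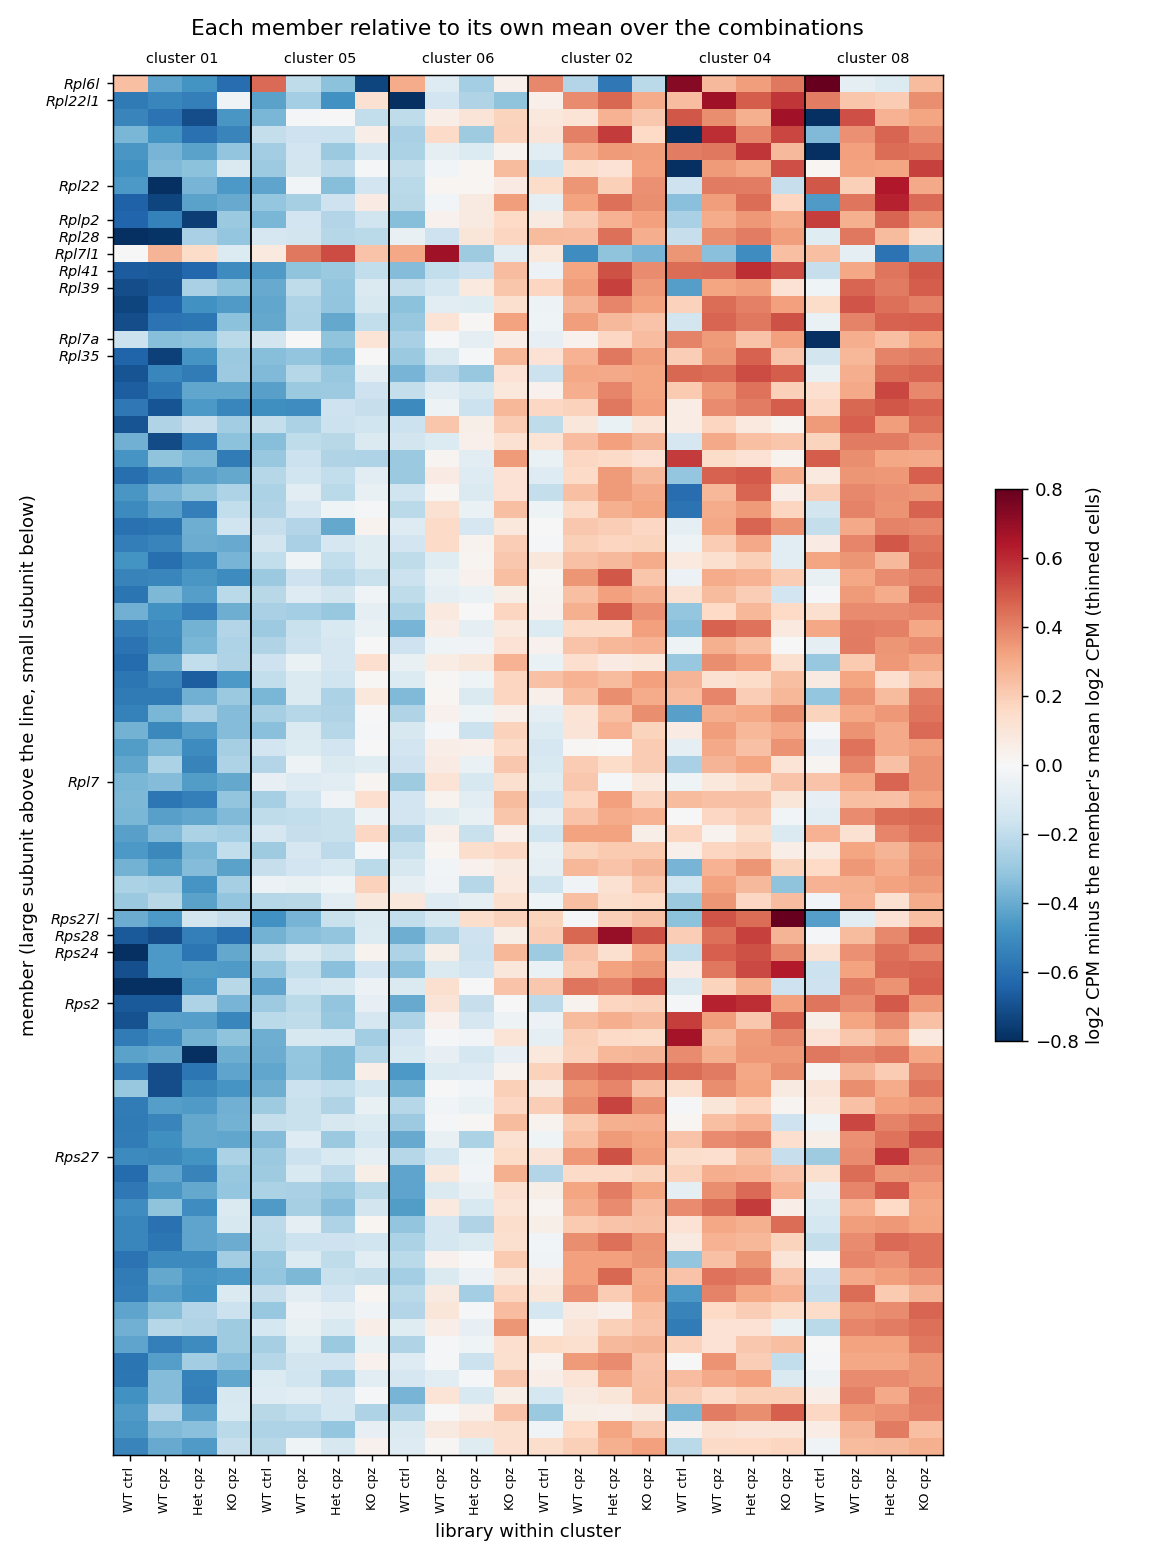
Each of 81 members (rows, without Rpl39l; only some rows carry a name) in the 24 combinations of the 6 pooled clusters and 4 libraries (columns), as log2 CPM of thinned cells minus the member's mean over the combinations (colour, limited to 0.8 either way). Nearly all rows turn from blue in cluster 01 to red in clusters 02, 04 and 08; Rpl7l1 does not, and Rpl6l is highest on control diet. The control-diet columns of clusters 04 and 08 rest on 6 and 13 cells.

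Over these 24 combinations, the log2 CPM of a member and the log2 summed share of all members had a median Pearson's r of 0.924 (81 members), from -0.594 for Rpl7l1 upward; each member is part of that sum. The median over 2820 other genes was -0.130. The other genes most like the members were Cox4i1, a subunit of cytochrome c oxidase (r = 0.940), Eef1a1, the factor that brings aminoacyl-tRNA to the ribosome (0.937), Fau (0.936), and the ATP synthase subunits Atp5l (0.913) and Atp5e (0.898). The points share libraries and depth, so r is a description. Malat1, a nuclear long noncoding RNA chosen after its values had been seen, had r of -0.845. It held 3.27% of UMIs on control diet and 2.67%, 2.504% and 2.47% on cuprizone, and 3.77% in cluster 01 against 1.97% in cluster 08. Mitochondrially encoded transcripts held 1.28%, 1.55%, 1.45% and 1.36% of UMIs in the 4 libraries. The part of nuclear or mitochondrial RNA content in the result was not tested.

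Genes that work with the ribosome were taken from lists, and their counts of called genes stand beside 4.76% of all genes called higher and 12.1% called lower with cuprizone in wild type. Among 4 ribosomal proteins outside the symbol pattern, Rack1, a scaffold on the small subunit, had a cuprizone ratio in wild type of 1.303 (1.206 to 1.408) and Rpl36al of 1.255 (1.175 to 1.341); both were called higher. Fau, made as a fusion of a ubiquitin-like domain with the small-subunit protein eS30, had 1.238 (1.208 to 1.269).

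Of the 7 genes in the list of elongation factors, 3 were called higher with cuprizone in wild type. The 1 called lower was Eef2k, which is not itself an elongation factor. Eef1a1 had a ratio of 1.268 (1.233 to 1.305), Eef1g of 1.273 (1.175 to 1.380) and Eef1b2 of 1.267 (1.171 to 1.372), and Eef2k, the kinase that inhibits Eef2, had 0.723 (0.607 to 0.862). Other genes with TOP mRNAs, some of which sit in the lists above, had ratios above 1 in 18 of 19, with 7 called higher, none lower and a median log2 ratio of 0.29. Tpt1, a growth-related protein, had 1.142 (1.093 to 1.192) and Npm1, a nucleolar chaperone, 1.206 (1.121 to 1.299).

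The lists whose products build or regulate the ribosome stood nearer to the median of all genes than the members did. With TMM scaling, under which 8.54% of all genes were called higher and 5.27% lower, the medians of the biogenesis and mitochondrial ribosomal lists were above 0, at 0.09 each, with 0 and 2 genes called lower and 1 and 3 called higher. That of the mTOR axis stayed below 0 at -0.06, with 2 called lower and 1 higher, and 5 initiation factors were called higher and 0 lower. Of 31 initiation factors, 2 were called higher and 1 lower (median log2 ratio 0.04). Eif1ax had 1.375 (1.097 to 1.733), Eif4b 1.265 (1.052 to 1.527) and the cap-binding protein Eif4e 0.786 (0.676 to 0.913). Of 35 ribosome biogenesis genes, 0 were called higher and 2 lower (median -0.03), namely Rrs1, at 0.719 (0.526 to 0.985), and Polr1a, a subunit of RNA polymerase I, at 0.738 (0.548 to 0.997). Of 77 mitochondrial ribosomal protein genes, 1 (Mrpl19, 1.343, 1.004 to 1.813) was called higher and 7 lower (median -0.03), against the same 12.1% of all genes. Of 18 genes of the mTOR and S6 kinase axis, 0 were called higher and 3 lower (median -0.18). Rps6kb2 had 0.552 (0.396 to 0.768), Sesn2 0.540 (0.326 to 0.891) and Rps6ka1 0.786 (0.705 to 0.877). This list mixes activators of mTOR signalling with inhibitors, Sesn2 among the latter. Rps6ka1 encodes a ribosomal S6 kinase of another family than Rps6kb2. The counts and median of the list thus give no direction of mTOR signalling. Rheb, the activator of mTOR, had 1.019 (0.909 to 1.142). On cuprizone, Ddit4, an inhibitor of mTOR signalling, was the one gene of that axis called in the knockout, at 1.755 (1.465 to 2.107), with 30.4 CPM in wild type and 53.4 in the knockout (4.49% of all genes were called higher there).

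Mitochondrially encoded transcripts had a median log2 ratio of 0.21 with cuprizone in wild type and -0.16 in the knockout against wild type on cuprizone. Their order over the cuprizone libraries was thus not that of the ribosomal proteins. The immediate early list had 8 of 21 genes called lower and 0 higher with cuprizone in wild type (median -0.28; with TMM scaling 3 lower and -0.16). Klf2 had 0.581 (0.562 to 0.601) and Junb 1.020 (1.001 to 1.039). In the knockout against wild type on cuprizone its median was -0.01.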

How the data were processed

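The values used are raw UMI counts for single cells, as the authors deposited them. The submitters' processing notes name Cell Ranger 2.1.1 and build mm10. The notes among the files say that low-quality cells had been removed before the 4 libraries were merged. Library and cluster names come from the authors' cell file. Columns of other samples numbered 0.

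UMIs were summed per library over clusters 01, 02, 04, 05, 06 and 08; clusters 03 and 07, with markers of other cell types, were left out. Sums were divided by the library total (CPM). Pool totals were 3638474, 6175520, 6552603 and 6514310 UMIs for wild type on control diet, wild type, heterozygote and knockout on cuprizone. Ratios have exact conditional binomial (Clopper-Pearson) and CPM exact Poisson 95% intervals, which cover counting error only. Medians have exact order-statistic 95% intervals, which cover the spread over the cells of a library. The intervals of differences between medians combine the opposite bounds of both medians and are not exact 95% intervals. No test between groups was possible with 1 library each. Doublets were not called; leaving out the deepest 5% of cells of each library stands in. The ratio computation was tested on simulated data. edgeR 4.0.16 gave TMM factors. Python 3.11.15, numpy 2.4.6 and scipy 1.17.1 were used.

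Members and lists were chosen with earlier results of these data known. Named members are the 5 most counted, the 5 highest and 5 lowest ratios per comparison (at least 200 UMIs), the 3 with the widest range over clusters (at least 1000 UMIs), the stalk, Rpsa, Rpl5, Rpl11 and paralogs with their partners. Other named genes are, per list, drawn from the 2 most counted and the 2 with the largest ratio in a comparison, and the 5 most like the members (log2 of CPM plus 1). Tpt1, Eef1b2, Eif4b, Polr1a, Rps6kb2, Sesn2, Malat1 and the pseudogene group were added after their values were seen. Gene coordinates are from GENCODE vM21 and start sites from RefSeq. Some genes that this rule takes are not reported here.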

Additional observations from a re-analysis of the deposited data

How the results depend on the processing

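The results were recomputed over another pool of cells (every deposited cell, without cluster 08, without cluster 02, without the deepest 5%), another scaling (TMM, without mitochondrial UMIs), other UMI minimums, thinned cells, the mean of per-cell CPM, members without paralogs and, for the share, other depths of thinning and 3 ranges of depth. Scaling without Malat1 and leaving out the control-diet cell with most Jchain UMIs were chosen after seeing the data. No result of a comparison changed its direction past its interval. The difference in median share for cuprizone in wild type was 1.43 points with the clusters weighted equally. Its count of members called higher was 27 with every deposited cell and 76 with TMM, and its median log2 ratio 0.45 with TMM. For the knockout, 1 member (Rpl39l) was called lower by the mean of per-cell CPM. For the heterozygote, 0 were called lower with every deposited cell, without cluster 08, without cluster 02, without the deepest 5%, without paralogs, at a minimum of 1000 UMIs and with thinned cells. The cause was not tested. The heterozygote's difference in median share was -0.02 points without cluster 02, -0.44 in the shallowest range of depth and -0.13 in the middle range. Single named members were recomputed with every deposited cell, without cluster 08, with thinned cells, with TMM and with scaling to the members' own UMIs. Of these values, 370 stayed within the member's interval and 155 lay outside it. TMM and scaling to the members' UMIs each move all ratios of a comparison by the same factor, so those moves are not independent. No paired analysis was possible because each group holds 1 library, and for the same reason no replicate could be left out.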
